A study of Mus musculus with 14 samples.

Results

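Slc3a2, Slc38a1, Slc38a2 and Slc1a5 encode proteins that bring amino acids across the plasma membrane. All 4 genes were found in the 14 deposited count tables by their symbol, each as 1 transcript, among 1399 transcripts in all. They are described here in fibroblasts grown from mouse embryos (MEFs), cells of connective tissue, in which polyadenylated RNA was sequenced. The series asks how cystine stored in lysosomes bears on ferroptosis, an iron-dependent form of cell death, and on a response of the nucleus to cysteine.

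The 14 libraries formed 7 groups of 2, all labelled as wild-type cells. NT was untreated, and its companions were cells starved of cysteine and cells starved of all amino acids. NT2 was also untreated, and stood with 3 groups: cells given cysteamine, a drug that empties lysosomes of cystine; cells with a short hairpin RNA against CTNS, the lysosomal cystine exporter (CTNS knockdown); and cells with that hairpin plus a CTNS plasmid (CTNS rescue). Pairing NT with the starvations and NT2 with the others is an assumption from the names, although the column headers of the NT and starvation tables share a prefix that the other 8 tables lack. The sources used here give no dose, time or medium, and name no transfection control for the hairpin or plasmid. Nothing in the labels states that replicates are separate cultures, and the spread behind each p-value is only that of these libraries, which may be technical. Ctns was not analysed here, so the knockdown labels were not checked against their target.

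Slc3a2 is the CD98 heavy chain, a glycoprotein that is not itself a pore: it holds light chains such as xCT, the cystine and glutamate exchanger, and LAT1, a leucine exchanger, at the cell surface. Slc38a1 (SNAT1) and Slc38a2 (SNAT2) are sodium-coupled carriers that take up glutamine, alanine and other small neutral amino acids. Slc1a5 (ASCT2) exchanges neutral amino acids, glutamine among them. When amino acids run short, the kinase GCN2 phosphorylates a translation factor, the protein ATF4 accumulates, and ATF4 is known to raise transcription of many transporter and biosynthesis genes, Slc3a2 and Slc38a2 included.

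Slc38a1 and Slc38a2 are paralogues that lie near each other on mouse chromosome 15, with 3 genes between them, none of them coding. The stretch below is shown because their levels are compared throughout, and it holds the longest run of bases that both transcripts share. Both lines are coding sequence from the GENCODE release M21 transcripts (GRCm38), bases 983 to 1043 of the Slc38a1 transcript and 878 to 938 of Slc38a2. Capitals mark the shared run.
Slc38a1: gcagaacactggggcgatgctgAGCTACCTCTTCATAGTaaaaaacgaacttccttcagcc
Slc38a2: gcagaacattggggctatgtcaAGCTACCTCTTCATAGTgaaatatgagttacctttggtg
The run is 17 bases long, and 46 of the 61 bases shown are identical. No window of 50 bases in Slc38a1, Slc38a2 or Slc1a5 occurred in a transcript of another gene. In Slc3a2, 122 of 2764 such windows (4.41%) also occurred in transcripts of 338 other genes. They lay between bases 2247 and 2417, beyond the coding end at base 1969, so counts from there could belong to other loci.

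The counted Slc3a2 transcript (ENSMUST00000170157, gene ENSMUSG00000010095) is on the minus strand of chromosome 19, with 10 exons and 2813 bases. The Slc38a2 transcript (ENSMUST00000023099, ENSMUSG00000022462) has 16 exons and 4660 bases on the minus strand of chromosome 15. Slc38a1 (ENSMUST00000088452, ENSMUSG00000023169) has 16 exons and 7266 bases on that same strand. Slc1a5 (ENSMUST00000108496, ENSMUSG00000001918) has 9 exons and 2764 bases on the plus strand of chromosome 7. Other isoforms of the same gene hold 99.0% of the windows of Slc1a5, 94.1% of Slc38a1, 68.3% of Slc3a2 and 35.8% of Slc38a2. A value is therefore that of the listed transcript as the authors counted it, and not the sum of a gene's isoforms.

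The promoters of Slc3a2 and Slc38a2 are shown because the differences reported below concern these genes; RefSeq's table for GRCm38.p6 matched 2 of the 4 members. Each line gives the 250 bases before the transcription start on the gene's strand, from chr19:8713898-8714147 and chr15:96699729-96699978, both minus. Capitals mark the motifs found.
Slc3a2: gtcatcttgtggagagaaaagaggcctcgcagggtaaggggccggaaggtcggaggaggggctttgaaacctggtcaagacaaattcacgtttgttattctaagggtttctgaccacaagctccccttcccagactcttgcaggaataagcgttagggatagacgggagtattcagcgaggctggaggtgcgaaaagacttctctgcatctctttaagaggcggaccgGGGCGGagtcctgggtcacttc
Slc38a2: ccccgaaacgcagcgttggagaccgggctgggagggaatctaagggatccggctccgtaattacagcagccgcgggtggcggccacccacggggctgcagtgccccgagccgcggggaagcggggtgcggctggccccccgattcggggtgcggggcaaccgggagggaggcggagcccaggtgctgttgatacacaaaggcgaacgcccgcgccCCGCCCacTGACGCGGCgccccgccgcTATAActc
Both strands were searched for 4 motifs. TGATGNAA, the core of the amino acid response element that ATF4 binds with C/EBP partners, was in neither window and is in 3.45% of 32851 such promoters. TGACNNNGC, the core of the antioxidant response element, was in Slc38a2 alone (10.2% of promoters). GGGCGG, the GC box, was in both (32.7%), in Slc38a2 on the reverse strand, and TATAA was in Slc38a2 (22.8%). G and C made up 72.0% of the Slc38a2 window and 53.6% of that of Slc3a2. These matches describe the letters in the windows and say nothing of binding, or of elements elsewhere in either gene.

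Totals ran from 25697 to 51224 counts per library in the first experiment (NT and the starvations) and from 64530 to 165747 in the second. Of 14 fibroblast markers 9 were listed, with a summed level between 11480 and 40621 CPM (library-scaled counts, with totals adjusted by edgeR's TMM factors) in every library. No leukocyte (0 of 6) or endothelial (0 of 4) marker was listed, while single epithelial (Cdh1, 1 of 6), skeletal muscle (Ttn, 1 of 6) and pancreatic (Ctrb1, 1 of 5) markers were. The libraries also differed in makeup: 357 transcripts that are high in NT relative to NT2, none of them a member, held 75.5% ± 16.5 of all counts in NT, 47.9% ± 13.9 in cysteine starvation, 81.0% ± 2.91 in full amino acid starvation, 9.79% ± 0.120 in NT2, 17.2% ± 0.815 in cysteamine, 32.7% ± 0.555 in knockdown and 41.1% ± 1.69 in rescue (SD, n = 2 each). This share differs between the groups compared below, and its part in the results was not tested except where a value without these transcripts is given. In RNA from bulk cells, fewer cells of a type and less RNA per cell cannot be told apart.

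**Figure D1:**
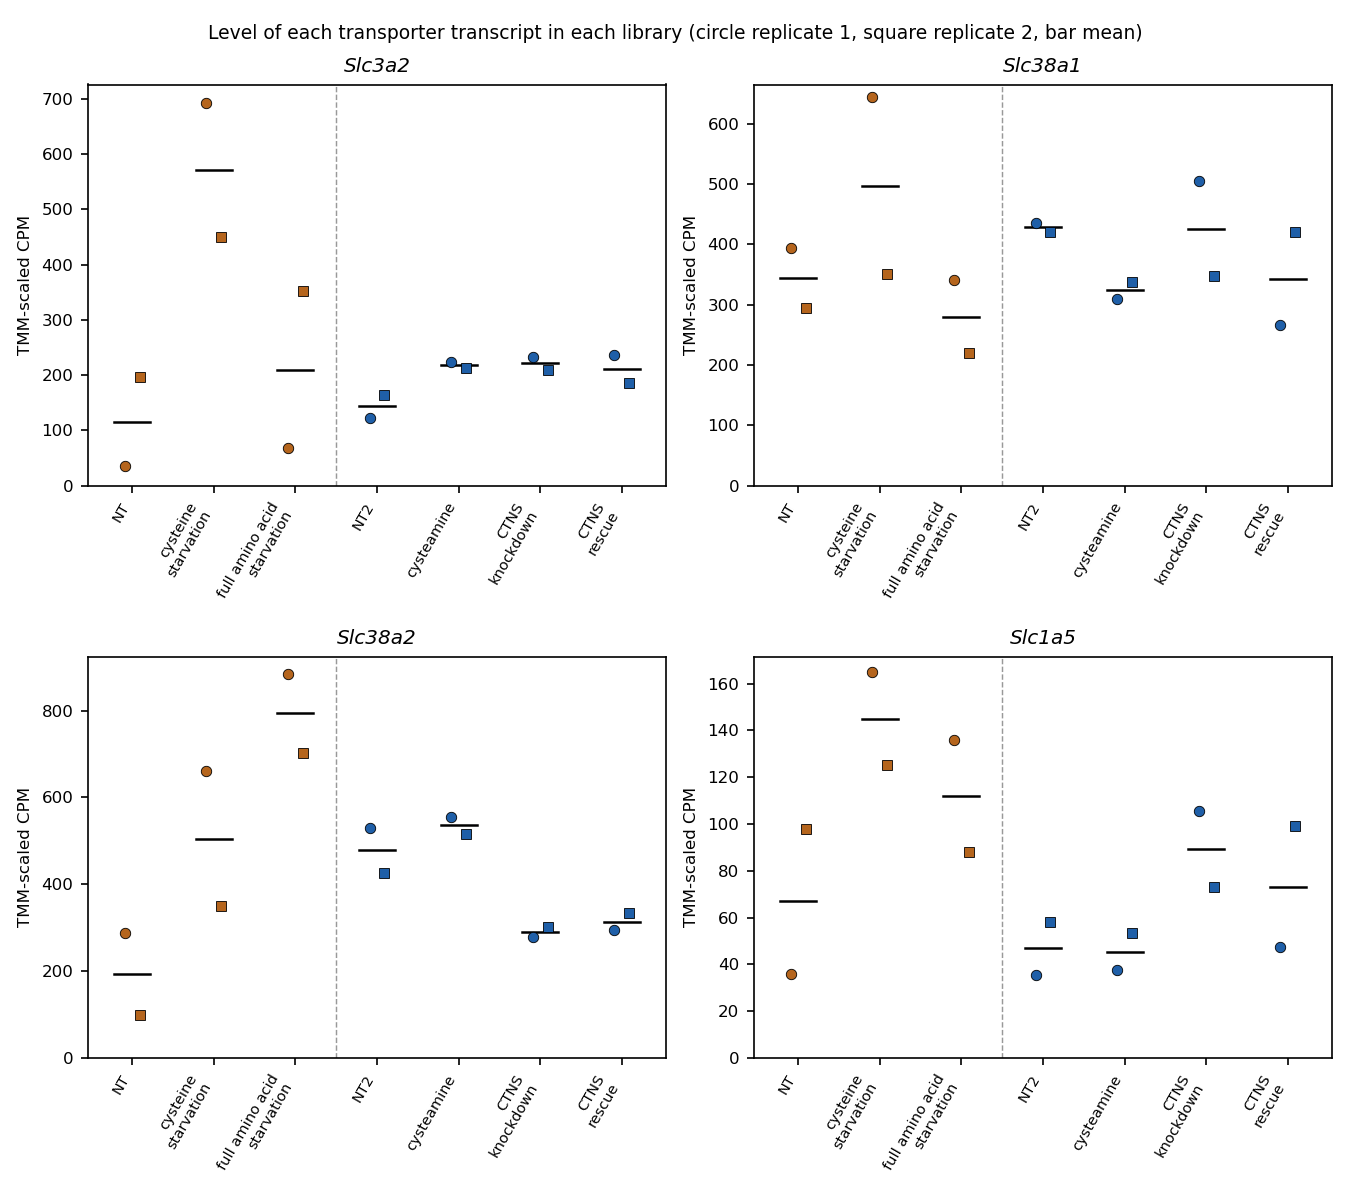
TMM-scaled CPM of the 4 transporter transcripts in each of the 7 groups; each point is 1 library and each bar the mean of 2. Slc3a2 is highest in the cysteine starvation libraries (693 and 451 CPM), Slc38a2 in those starved of all amino acids (885 and 703 CPM).

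Slc3a2, the CD98 heavy chain, had its highest level in cysteine starvation. It was counted 42 times in replicate 1 and 18 times in replicate 2 of cysteine starvation, against 1 and 2 times in NT. On the CPM scale this is 572 ± 172 in cysteine starvation and 116 ± 113 in NT (SD, n = 2). The starved libraries, at 693 and 451 CPM, both lay above the NT libraries, at 35.8 and 196 CPM. The ratio of scaled counts was 7.59, with an exact 95% interval of 2.47 to 37.8 that covers counting error only. The fitted log2 difference was 2.87 ± 0.67 (SE) and missed the threshold (edgeR's quasi-likelihood test, Benjamini-Hochberg adjusted p = 0.0740). It ranked 11 by p among the 1399 transcripts. The call depends on the setting: the adjusted p was 0.00775 with scaling by total counts and 0.000422 against NT2 in place of NT (2.04). Total-count scaling also moved the median of all transcripts to 0.70. Settings other than leaving out 1 library gave an adjusted p of up to 0.180. Leaving out NT replicate 1 gave a difference of 1.58, and leaving out NT replicate 2 one of 4.0. The summed fibroblast markers were 34708 to 37400 CPM in cysteine starvation and 16948 to 26467 in NT, without overlap. Ctrb1, Ttn and Cdh1 had log2 differences of -2.64, -1.33 and -1.89 there, none past the threshold. Each belongs to the 357 transcripts high in NT, a class picked in part for high values in NT. The part of all these markers in the result was not tested.

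Starvation of all amino acids gave Slc3a2 counts of 1 and 8, or 68.1 and 352 CPM. These libraries overlapped with NT. The ratio of counts to NT was 3.06 (exact 95% interval 0.762 to 17.5), and the adjusted p was 0.681. Cysteine starvation stood above full amino acid starvation by 1.30 ± 0.51 on the log2 scale, which also missed the threshold (adjusted p = 0.103). The libraries did not overlap. Without full amino acid starvation replicate 2 the difference was 3.09, and without replicate 1 of that group 0.74. With total-count scaling it was 2.36 (adjusted p = 0.00364), while the median of all transcripts moved to 1.09.

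In the second experiment Slc3a2 varied less. It was counted 31 and 34 times in NT2 (123 and 165 CPM), 42 and 48 times with cysteamine (224 and 213 CPM), 31 and 23 times in knockdown (234 and 210.1 CPM) and 25 and 15 times in rescue (237 and 186 CPM). Every treated library lay above both NT2 libraries, and the 3 treated groups overlapped with each other. The log2 differences from NT2 were 0.61 ± 0.31 for cysteamine, 0.64 ± 0.33 for knockdown and 0.58 ± 0.35 for rescue (SE), with adjusted p of 0.205, 0.157 and 0.231. These comparisons share the NT2 libraries. Without the 357 transcripts high in NT, the knockdown difference was 0.77 with an adjusted p of 0.0383. No other setting of the 3 comparisons with NT2 gave an adjusted p below 0.05 for Slc3a2.

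In the order of its 7 group means, Slc3a2 had cysteine starvation at the top, at 572 CPM, with no library overlapping the next group, knockdown, at 222 CPM. Each of the other neighbours in that order overlapped, down to NT2 at 144 ± 29.6 and NT at 116 ± 113 CPM (SD, n = 2).

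Slc38a2, the SNAT2 carrier, fell in CTNS knockdown. It was counted 37 and 33 times in knockdown (279 and 301 CPM), against 134 and 88 times in NT2 (531 and 426 CPM) and 104 and 116 times with cysteamine (555 and 516 CPM). Both knockdown libraries lay below all 4 libraries of NT2 and cysteamine. The log2 difference was -0.73 ± 0.24 (SE) against NT2 (edgeR's quasi-likelihood test, adjusted p = 0.0273) and -0.88 ± 0.24 against cysteamine (adjusted p = 0.0144). As a mean, 290.0 ± 16.0 CPM in knockdown stood against 478 ± 73.9 in NT2 and 535 ± 27.7 with cysteamine (SD, n = 2).

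The size of this fall differed little between tools, while its call did not hold throughout. DESeq2 gave adjusted p of 0.0712 against NT2, and limma 0.417. Leaving out NT2 replicate 1, knockdown replicate 1 or knockdown replicate 2 gave 0.225, 0.169 and 0.0991, and every omission ended the call against cysteamine (0.0712 to 0.120). Within the second experiment alone the difference from NT2 was -0.82 (adjusted p = 0.00235), and without the 357 transcripts high in NT it was -0.61 (adjusted p = 0.0164). Against NT in place of NT2 it was 0.30, of the opposite sign. The fibroblast markers moved in the same direction: all 9 listed were below 0 in knockdown against NT2. Of these 7 were called lower, beside 13.2% of all transcripts. Their summed level was 11480 to 11660 CPM in knockdown, 37303 to 40621 in NT2 and 23563 to 24196 with cysteamine. Cdh1, Ttn and Ctrb1 rose in knockdown against NT2, by 2.39, 1.60 and 4.38 on the log2 scale. Each belongs to the 357 transcripts high in NT, a class picked in part for low values in NT2. The part of all these markers in the result was not tested.

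**Figure D2:**
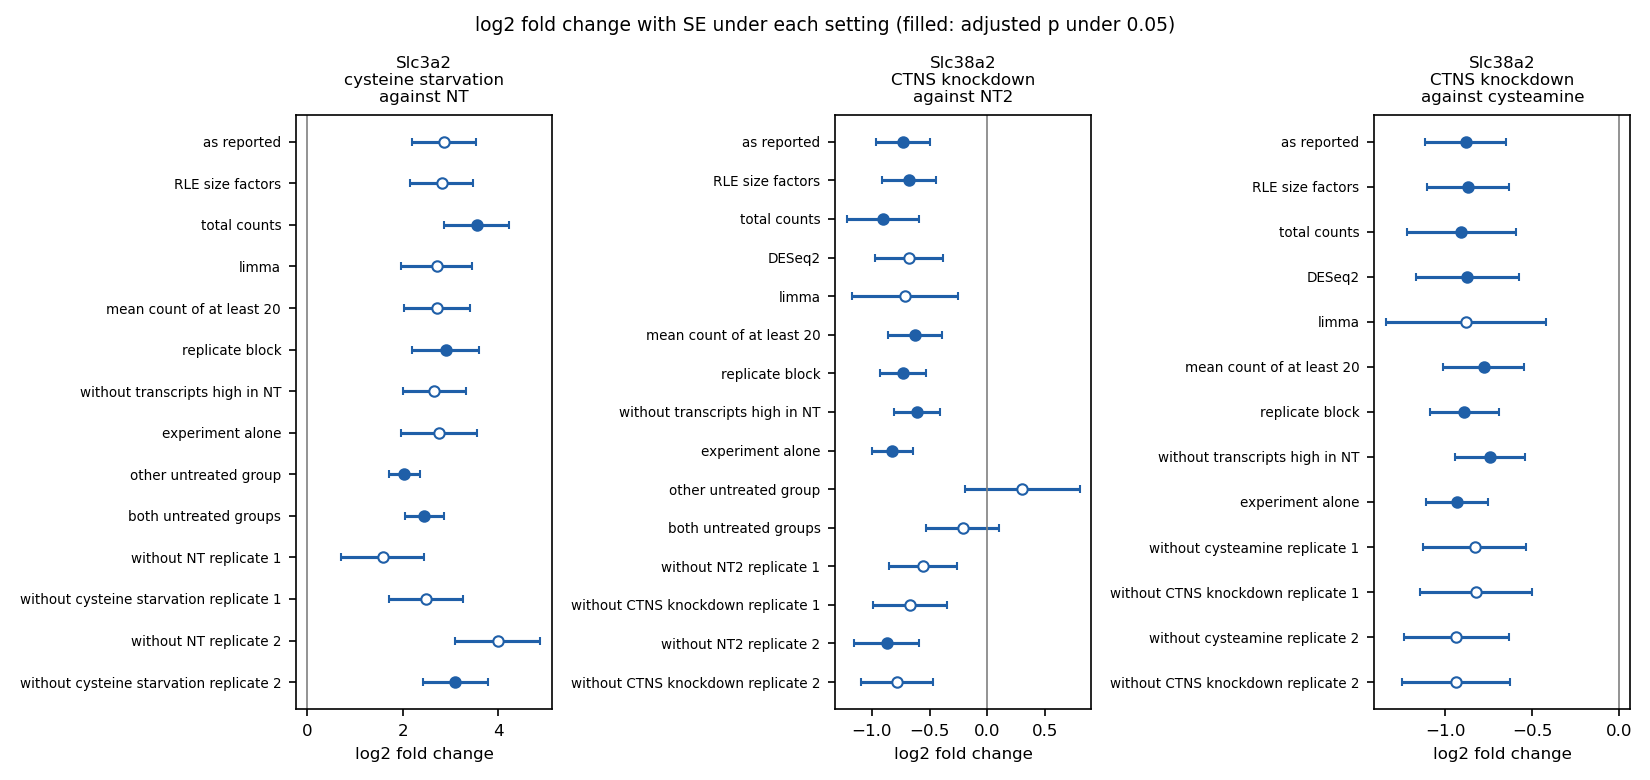
Log2 difference with its SE for Slc3a2 in cysteine starvation and Slc38a2 in CTNS knockdown under each setting; filled points have an adjusted p below 0.05, and DESeq2, which gave no adjusted p for Slc3a2 there, is absent from the left panel. Slc3a2 lies between 1.58 and 4.0, and Slc38a2 against NT2 changes sign only with the other untreated group (0.30).

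With the CTNS plasmid added, Slc38a2 was counted 31 and 27 times (294 and 334 CPM). The rescue libraries overlapped with knockdown, and differed from it by 0.11 ± 0.28 on the log2 scale (95% interval -0.56 to 0.78). Both lay below NT2, by -0.62 ± 0.25, which missed the threshold (adjusted p = 0.0660) in the fit of all groups and passed it within the second experiment alone (-0.72, adjusted p = 0.00768). Cysteamine and NT2 overlapped, with a log2 difference of 0.15 ± 0.20 (adjusted p = 0.644).

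By TMM-scaled CPM, starvation of all amino acids gave the highest Slc38a2 level of the series. It was counted 13 and 16 times there (885 and 703 CPM), 40 and 14 times in cysteine starvation (660.2 and 350.5 CPM) and 8 times and 1 time in NT (287 and 98.0 CPM). Both starved groups lay above NT without overlap. The rank of full amino acid starvation over cysteamine rests on the TMM factors, 0.477 and 0.506 against 1.38 and 1.39. As shares of unscaled totals, 13 of 30784 and 16 of 44946 counts lie below 104 of 135829 and 116 of 162055 with cysteamine. The log2 differences from NT were 1.73 ± 0.51 for full amino acid starvation and 1.17 ± 0.48 for cysteine starvation (SE), with adjusted p of 0.360 and 0.227. Between the starvations the difference was -0.55 ± 0.35 for cysteine starvation against full amino acid starvation (adjusted p = 0.334). Scaling by total counts turned it to 0.51 and moved the median of all transcripts to 1.09. Neither difference from NT passed edgeR's test with all groups fitted together; limma on log2 values called the full starvation difference (adjusted p = 0.0480), and so did edgeR with both untreated groups as the control (1.21, adjusted p = 0.0312).

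By group mean of TMM-scaled CPM, full amino acid starvation (794 ± 128 CPM) stood above cysteamine without overlap, and NT2 above rescue (314 ± 28.7 CPM) without overlap. The other neighbours overlapped: cysteamine with cysteine starvation (505 ± 219 CPM), that group with NT2, rescue with knockdown, and knockdown with NT (192 ± 133 CPM; SD, n = 2).

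Slc38a1, the SNAT1 carrier, passed edgeR's test in no comparison, nor was any unadjusted p under 0.05. Other settings called it 3 times: higher in knockdown than with cysteamine without the 357 transcripts high in NT (0.55, adjusted p = 0.0304), and, with total-count scaling, higher in cysteine starvation than in full amino acid starvation (2.01, adjusted p = 0.00999) and in the cysteamine effect minus the cysteine starvation effect (-1.75, adjusted p = 0.0485). Scaling by total counts moved the median of all transcripts to 1.09 between the starvations and -0.74 for that difference between effects. Slc38a1 was counted 11 and 3 times in NT (394 and 294 CPM), 39 and 14 times in cysteine starvation (644 and 350.5 CPM) and 5 times in each library starved of all amino acids (340.3 and 219.8 CPM). NT overlapped with both starved groups, with a log2 difference from NT of 0.51 ± 0.46 for cysteine starvation and -0.45 ± 0.62 for full amino acid starvation (SE). The counts in the second experiment were 110 and 87 in NT2 (436 and 421 CPM), 58 and 76 with cysteamine (309.5 and 338 CPM), 67 and 38 in knockdown (505 and 347 CPM) and 28 and 34 in rescue (265 and 421 CPM). The cysteamine libraries lay below both NT2 libraries (-0.40 ± 0.23, adjusted p = 0.253), and knockdown lay on either side of NT2 (0.0063 ± 0.24, 95% interval -0.55 to 0.56). Its 7 group means ran from 497 ± 207 CPM in cysteine starvation to 280.1 ± 85.2 CPM in full amino acid starvation, and every pair of neighbours in that order overlapped.

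Slc1a5, the ASCT2 exchanger, was the least counted member, with 96 counts over the 14 libraries against 321 for Slc3a2, 575 for Slc38a1 and 662 for Slc38a2. Each NT library held 1 count (35.8 and 98.0 CPM), those of cysteine starvation 10 and 5 (165 and 125 CPM), and those of full amino acid starvation 2 each (136 and 87.9 CPM). Cysteine starvation lay above NT without overlap, by a ratio of 2.84 with an exact 95% interval of 0.661 to 25.6. The interval includes no difference, and the adjusted p was 0.409, or 0.0246 against NT2 in place of NT (1.67). For full amino acid starvation the ratio was 2.04 (0.292 to 22.5), and the libraries overlapped with NT.

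In the second experiment Slc1a5 was counted 9 and 12 times in NT2 (35.6 and 58.1 CPM), 7 and 12 times with cysteamine (37.4 and 53.4 CPM), 14 and 8 times in knockdown (105 and 73.1 CPM) and 5 and 8 times in rescue (47.4 and 99.1 CPM). Both knockdown libraries lay above NT2 and above cysteamine. The log2 differences were 0.96 ± 0.43 against NT2 (adjusted p = 0.103) and 0.96 ± 0.44 against cysteamine (adjusted p = 0.119). Without the 357 transcripts high in NT they were 1.09 (adjusted p = 0.0370) and 1.10 (adjusted p = 0.0380). Cysteamine and NT2 were close, at 45.4 ± 11.3 and 46.9 ± 15.9 CPM (SD, n = 2). All neighbours in the order of the 7 group means overlapped.

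**Figure D3:**
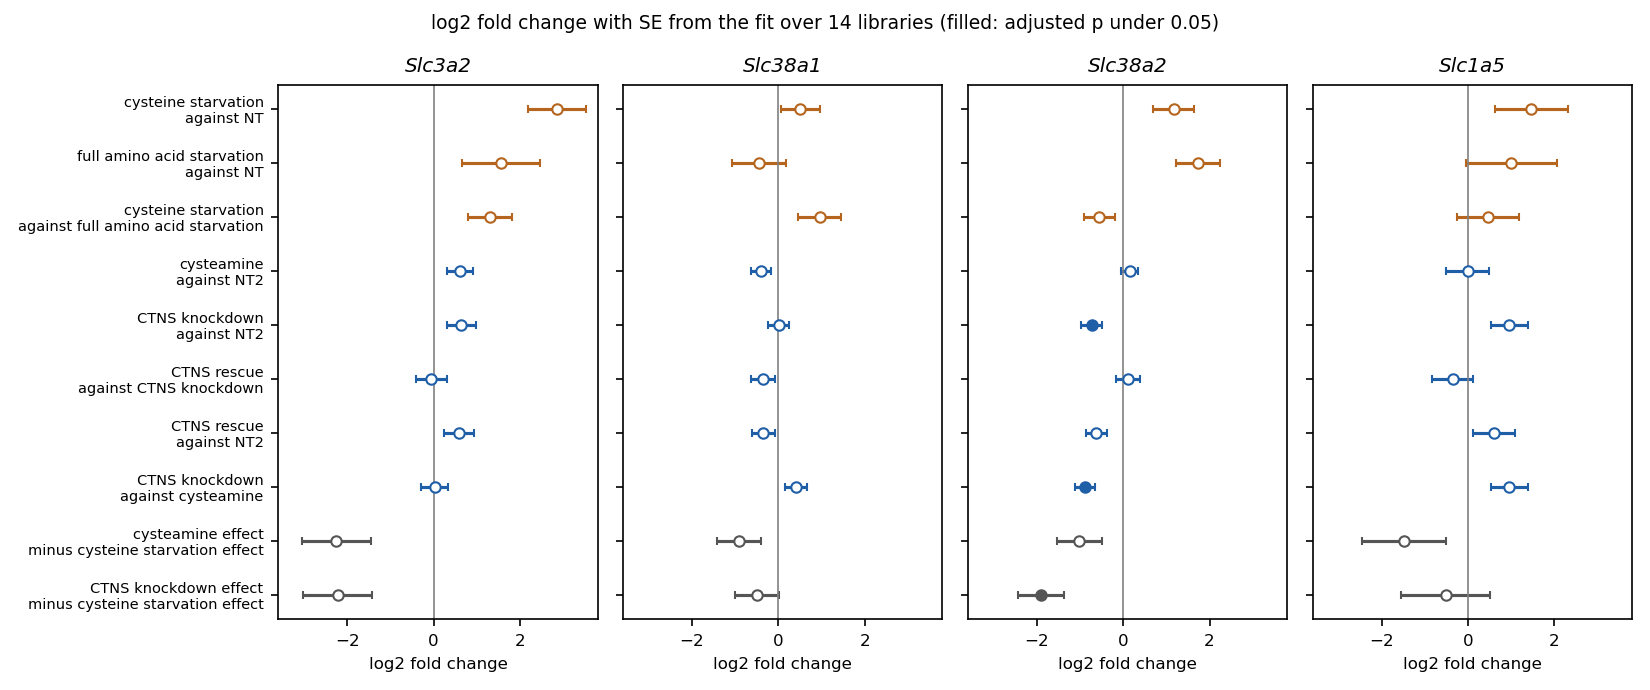
Fitted log2 differences with their SE for the 4 transcripts in the comparisons of 2 groups and the differences between effects; filled points have an adjusted p below 0.05. Filled points occur for Slc38a2 alone, in knockdown against NT2 (-0.73), knockdown against cysteamine (-0.88) and the knockdown effect minus the cysteine starvation effect (-1.90).

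Read against all 1399 transcripts, the members' calls were few. In cysteine starvation against NT 0 of 4 members passed edgeR's test, where 0% of all transcripts did; at an unadjusted p under 0.05 it was 2 of 4 (Slc3a2 and Slc38a2) and 230 of all. DESeq2 called 0 members and 67 transcripts there, and limma 0 and 5. In full amino acid starvation against NT edgeR also called 0 of 4 and 0% of all, with 1 of 4 (Slc38a2) and 109 of all at an unadjusted p under 0.05; DESeq2 called 0 members and 0 transcripts, and limma 1 and 13.

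In the remaining comparisons many transcripts were called. Between the starvations 0 of 4 members passed, where 15% of all transcripts did (2.57% higher and 12.4% lower in cysteine starvation). DESeq2 and limma called 0 as well. At an unadjusted p under 0.05 it was 1 of 4 (Slc3a2), beside 403 of all 1399 transcripts. For cysteamine against NT2 it was 0 of 4 by each of the 3 tools, beside 10.5% of all transcripts by edgeR (5.5% higher, 5% lower). It was also 0 of 4 at an unadjusted p under 0.05, beside 387 of all. In knockdown against NT2 the 1 member called lower, Slc38a2, stood beside 13.2% of transcripts called lower, 17.6% called higher and 30.8% called in either direction. Against cysteamine knockdown again called 1 of 4 lower, where 14.7% of transcripts were called lower and 10.1% higher. Rescue called 0 of 4 against knockdown (0.643% of all) and 0 of 4 against NT2 (31.5% of all) by each of the 3 tools. At an unadjusted p under 0.05 it called 0 of 4 against knockdown, beside 154 of all 1399 transcripts. Against NT2 this was 1 of 4 (Slc38a2), beside 569 of all. A single call among 4 members is the smallest count above 0 and sets them apart from the background in neither knockdown comparison.

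The members can also be counted by whether the libraries of 2 groups overlap. In cysteine starvation 3 of 4 (Slc3a2, Slc38a2 and Slc1a5) had both libraries above NT, as did 24.5% of all transcripts. In full amino acid starvation Slc38a2 alone did, beside 16.3% of all. Cysteine starvation lay above full amino acid starvation for Slc3a2 and Slc38a1 (25.7% of all transcripts) and below it for Slc38a2 (28.1%).

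In the second experiment cysteamine lay above NT2 for Slc3a2 (39.7% of all transcripts) and below it for Slc38a1 (26.2%). Knockdown lay above NT2 for Slc3a2 and Slc1a5 (40.2%) and below it for Slc38a2 (31.6%). Rescue lay above NT2 for Slc3a2 (34%) and below it for Slc38a2 and, by a margin under 1 CPM, Slc38a1 (34.4%). Knockdown lay above cysteamine for Slc38a1 and Slc1a5 (36%) and below it for Slc38a2 (32.5%). Rescue and knockdown overlapped for all 4 members, where 24.2% of all transcripts were higher and 23.7% lower without overlap.

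The median log2 difference of the 4 members was 1.32 for cysteine starvation and 1.29 for full amino acid starvation, against 0.011 and 0.049 over all transcripts. It was 0.076 for cysteamine, 0.32 for knockdown and 0.12 for rescue against NT2, where all transcripts had 0.13, 0.092 and -0.0055.

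Summed over the 4 members, counts were 21 and 7 in NT (752 and 686 CPM), 131 and 51 in cysteine starvation (2162 and 1277 CPM) and 21 and 31 in full amino acid starvation (1429 and 1363 CPM). Both starved groups lay above NT. The sum was nearly level in the second experiment, at 1124 and 1069.8 CPM in NT2, 1126 and 1121 with cysteamine, 1122 and 932 in knockdown and 844 and 1040.4 in rescue.

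A ratio of 2 members within 1 library does not depend on the scaling. The ratio of Slc38a2 to Slc38a1 counts was 2.60 and 3.20 in the libraries starved of all amino acids, above those of every other group. It was 1.79 and 1.53 with cysteamine, 1.22 and 1.01 in NT2, 1.11 and 0.794 in rescue, 1.03 and 1.0 in cysteine starvation, 0.552 and 0.868 in knockdown and 0.727 and 0.333 in NT. Within the second experiment, knockdown lay below NT2 and cysteamine above it, without overlap. In full amino acid starvation the ratio rests on 5 Slc38a1 counts in each library, and in NT on 11 and 3.

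The ratio of Slc38a2 to Slc3a2 counts separated the groups in another order. Its values were 4.32 and 2.59 for NT2, 2.48 and 2.42 for cysteamine, 1.19 and 1.43 for knockdown, 1.24 and 1.80 in rescue, and 0.952 and 0.778 in cysteine starvation. Knockdown, rescue and cysteine starvation all lay below NT2 and cysteamine. In NT (8 and 0.5) and full amino acid starvation (13 and 2) the ratio rests on Slc3a2 counts of 8 or fewer and its libraries lie far apart.

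**Figure D4:**
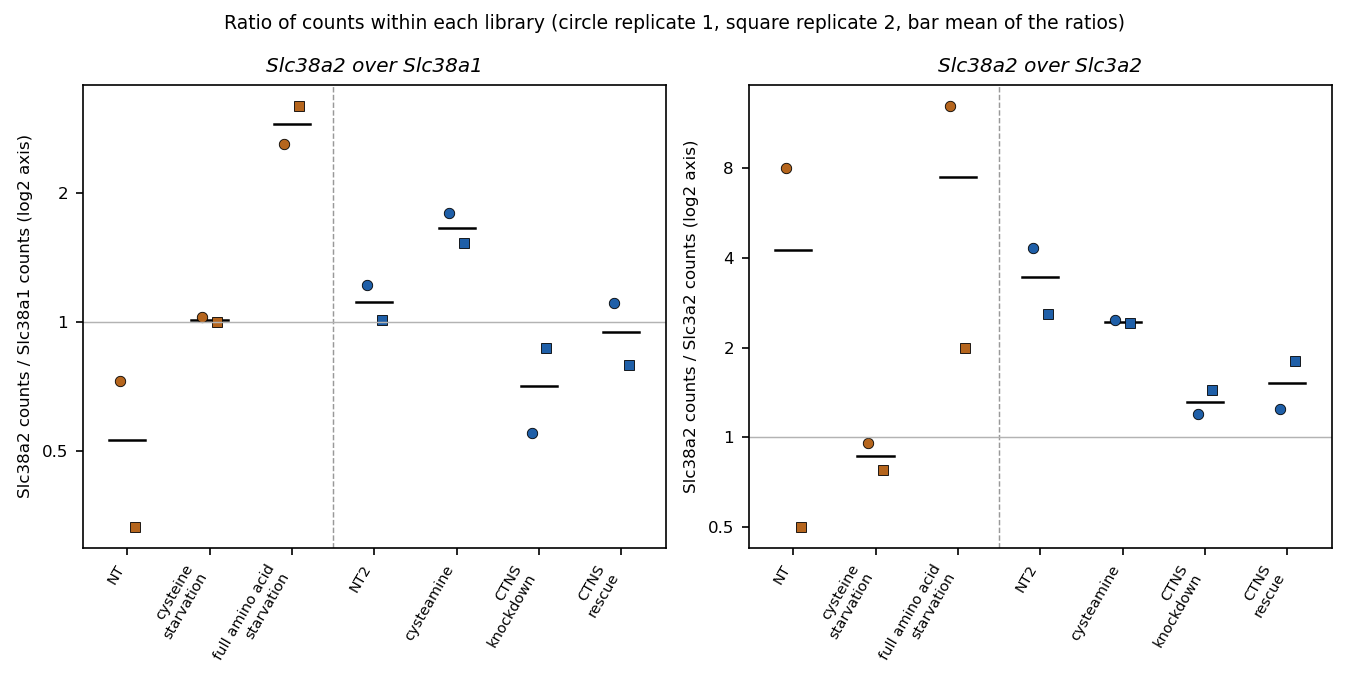
Ratio of counts of 2 members within each library, by group, on a log axis; each point is 1 library. The Slc38a2 to Slc38a1 ratio is highest in full amino acid starvation (2.60 and 3.20, each over 5 Slc38a1 counts) and lies below 1 in both knockdown libraries (0.552 and 0.868).

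Levels per kilobase are given here for the listed transcripts, and their order is not one of the genes. Other isoforms of the same gene hold 99.0% of the windows of Slc1a5, 94.1% of Slc38a1, 68.3% of Slc3a2 and 35.8% of Slc38a2. The counting tool is not stated, so how reads shared between isoforms were assigned is unknown. Its part in these levels was not tested. In NT2 the level was 103 ± 15.9 CPM per kilobase for Slc38a2, 58.9 ± 1.40 for Slc38a1, 51.1 ± 10.5 for Slc3a2 and 17.0 ± 5.75 for Slc1a5 (SD, n = 2). In cysteine starvation Slc3a2 led with 203 ± 61.0, followed by Slc38a2 with 108 ± 47.0, Slc38a1 with 68.4 ± 28.5 and Slc1a5 with 52.5 ± 10.2. In full amino acid starvation Slc38a2 led with 170.4 ± 27.5, and in knockdown Slc3a2 (78.8 ± 5.90), Slc38a2 (62.2 ± 3.44) and Slc38a1 (58.6 ± 15.3) lay close together.

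The effects of cysteamine and knockdown were also compared with that of cysteine starvation, as the difference between effects. These treatments bear on lysosomal cystine in unlike ways: cysteamine empties lysosomes of it, and the hairpin targets its exporter. The knockdown effect on Slc38a2 was lower than the cysteine starvation effect by 1.90 on the log2 scale, that is -1.90 ± 0.53 (SE; edgeR, adjusted p = 0.0170). This called 1 of 4 members lower, beside 7.15% of all transcripts called lower and 19.2% called in either direction. For Slc3a2 the same difference was -2.23 ± 0.80 and missed the threshold (adjusted p = 0.0619). The cysteamine effect differed from that of cysteine starvation by -2.25 ± 0.79 for Slc3a2 (adjusted p = 0.101) and -1.02 ± 0.52 for Slc38a2 (adjusted p = 0.280); 0 of 4 members passed, beside 6.79% of all (4.43% higher, 2.36% lower). The Slc38a2 call rests on NT and was lost without the 357 transcripts high in NT (-1.56, adjusted p = 0.0657), without cysteine starvation replicate 1 (-1.31, adjusted p = 0.159), without NT replicate 2 (-1.62, adjusted p = 0.0608) and without NT2 replicate 1 (-1.73, adjusted p = 0.0518).

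Other genes of the pathway were sparse in the tables. Of 38 other amino acid transporters 2 were listed; xCT (Slc7a11) and LAT1 (Slc7a5) were not analysed here. Slc6a15, a sodium-dependent transporter of neutral amino acids that belongs to the 357 transcripts high in NT, rose with cysteamine (1.78 ± 0.41, adjusted p = 0.0112), knockdown (2.94 ± 0.41, adjusted p = 0.000116) and rescue (3.52 ± 0.41, adjusted p = 2.03e-05) against NT2. That class was picked in part for low values in NT2, which favours rises against NT2. Slc6a15 was lower in cysteine starvation than in full amino acid starvation (-2.18 ± 0.36, adjusted p = 0.00158). Slc38a10, of the same family as SNAT1 and SNAT2, passed in none; its level was 702 ± 246 CPM in cysteine starvation and 536 ± 204 CPM in NT.

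Of 31 genes listed for ATF4 and its targets in amino acid shortage, 5 were listed: Atf4 itself, Mthfd2 and Shmt2 of mitochondrial one-carbon metabolism, Phgdh of serine synthesis and Aldh18a1 of proline synthesis. In cysteine starvation against NT all 5 differences were above 0 and 0 of 5 passed edgeR's test (5 of 5 at an unadjusted p under 0.05, beside 230 of all 1399 transcripts). The median was 1.25, with 2.59 ± 0.63 for Mthfd2 (adjusted p = 0.0805), 1.74 ± 0.50 for Shmt2 (adjusted p = 0.101) and 1.14 ± 0.37 for Atf4 (adjusted p = 0.123). In full amino acid starvation all 5 were above 0 as well, with a median of 0.62, and 0 of 5 passed (1 of 5 at an unadjusted p under 0.05, beside 109 of all); Atf4 had 0.021 ± 0.49. In knockdown against NT2 all 5 were below 0 and 1 passed, Aldh18a1 (-1.04 ± 0.29, adjusted p = 0.0138), which also fell with cysteamine (-1.10 ± 0.26, adjusted p = 0.0150). Over all transcripts 13.2% were called lower in knockdown against NT2 and 5% with cysteamine. Atf4 fell in rescue against NT2 (-0.91 ± 0.24, adjusted p = 0.00908), where 12.9% of all transcripts were called lower. The knockdown effect was lower than the cysteine starvation effect for 4 of 5, where 7.15% of all transcripts were called lower. The differences were -2.98 for Mthfd2 (adjusted p = 0.00718), -2.29 for Aldh18a1 (adjusted p = 0.0106), -1.88 for Shmt2 (adjusted p = 0.0302) and -1.49 for Atf4 (adjusted p = 0.0204).

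Among the aminoacyl-tRNA synthetases, which charge tRNAs with the amino acids the carriers supply, 8 were listed. In cysteine starvation 7 of 8 were above NT, with a median of 0.93, and 0 of 8 passed edgeR's test. At an unadjusted p under 0.05 it was 3 of 8, beside 230 of all 1399 transcripts. Lars, for leucine, had 2.44 ± 0.58 (adjusted p = 0.0751). In full amino acid starvation 6 of 8 were above NT, with a median of 1.12, and again 0 of 8 passed. At an unadjusted p under 0.05 it was 4 of 8, beside 109 of all transcripts. Lars had 1.60 ± 0.75 (adjusted p = 0.607). Knockdown against NT2 raised Sars, for serine (0.85 ± 0.25, adjusted p = 0.0162), and lowered Vars, for valine (-0.75 ± 0.23, adjusted p = 0.0218). Over all transcripts 17.6% were called higher there and 13.2% lower. Against cysteamine, knockdown was higher in Aars, for alanine (0.80 ± 0.19, adjusted p = 0.00970), and Sars (1.03 ± 0.25, adjusted p = 0.0101), and lower in Vars (-0.73 ± 0.23, adjusted p = 0.0336). In that comparison 10.1% of all transcripts were called higher and 14.7% lower.

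Of 10 partners of CD98 at the surface 1 was listed, Itgav, the integrin alpha-V chain. It fell in knockdown against NT2 (-1.32 ± 0.22, adjusted p = 0.000573), from 548 ± 42.5 to 219 ± 0.525 CPM (SD, n = 2), and in rescue against NT2 (-1.21 ± 0.23, adjusted p = 0.00119). Of 28 genes of amino acid sensing by mTORC1, 2 were listed. Mtor passed in none, and Fnip2, a partner of folliculin, rose in knockdown (0.88 ± 0.31, adjusted p = 0.0392) and rescue (1.01 ± 0.32, adjusted p = 0.0236) against NT2. Fnip2 belongs to the transcripts high in NT, a class picked in part for low values in NT2.

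The tables listed 8 other genes with solute carrier symbols, of which Slc9a3r1, a scaffold protein, and Slc4a1ap, an adaptor, are not carriers. In knockdown against NT2 5 of 8 were below 0 and 3 were called lower, beside 13.2% of all transcripts called lower. These were Slc18a2, the vesicular monoamine transporter (-2.25 ± 0.24, adjusted p = 1.8e-05), Slc9a3r1 (-1.66 ± 0.22, adjusted p = 9.48e-05) and Slc25a4, the mitochondrial ADP/ATP carrier (-0.83 ± 0.27, adjusted p = 0.0259). With cysteamine 6 of 8 were below 0 and 3 were called lower, beside 5% of all transcripts called lower. They were Slc9a3r1 (-1.12 ± 0.19), Slc18a2 (-0.76 ± 0.21) and Slc12a4, a potassium-chloride cotransporter (-1.03 ± 0.31). The 8 had a median of -0.69 in knockdown, against 0.32 for the 4 members and 0.092 over all transcripts.

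The transcripts whose profiles over the 7 groups were most like those of the members were found by the root mean square difference of log2 group levels, each centred within its experiment, among transcripts with a mean count of at least 20. Nearest to Slc3a2 were Lars (0.22), Mthfd2 (0.30), a mitochondrial one-carbon enzyme, and Hspa9 (0.30), a mitochondrial chaperone, where the median transcript differed by 0.72. For Slc38a2 they were Cdk4 (0.13), a cell cycle kinase, Rpl18 (0.15), a ribosomal protein, and Mcm3 (0.17), a subunit of the replicative helicase, beside a median of 0.59. Cdk4 was measured at 446 ± 53.2 CPM in full amino acid starvation, 466 ± 1.74 in NT2 and 222 ± 47.7 in knockdown (SD, n = 2).

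The centred log2 levels of Slc38a1 ran from -0.39 in full amino acid starvation to 0.38 in cysteine starvation. Its profile was nearest to Usp5 (0.072), a deubiquitinase, Sptan1 (0.076), a spectrin, and Hdlbp (0.082), an RNA-binding protein, beside a median of 0.40. Slc1a5, whose own mean count of 6.86 is under the minimum, was nearest to Kmt2a (0.11), a histone methyltransferase, Ago2 (0.16), the microRNA-guided nuclease, and Ubn1 (0.17), a histone chaperone subunit, beside a median of 0.55. No member was among the nearest 3 of another.

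**Figure D5:**
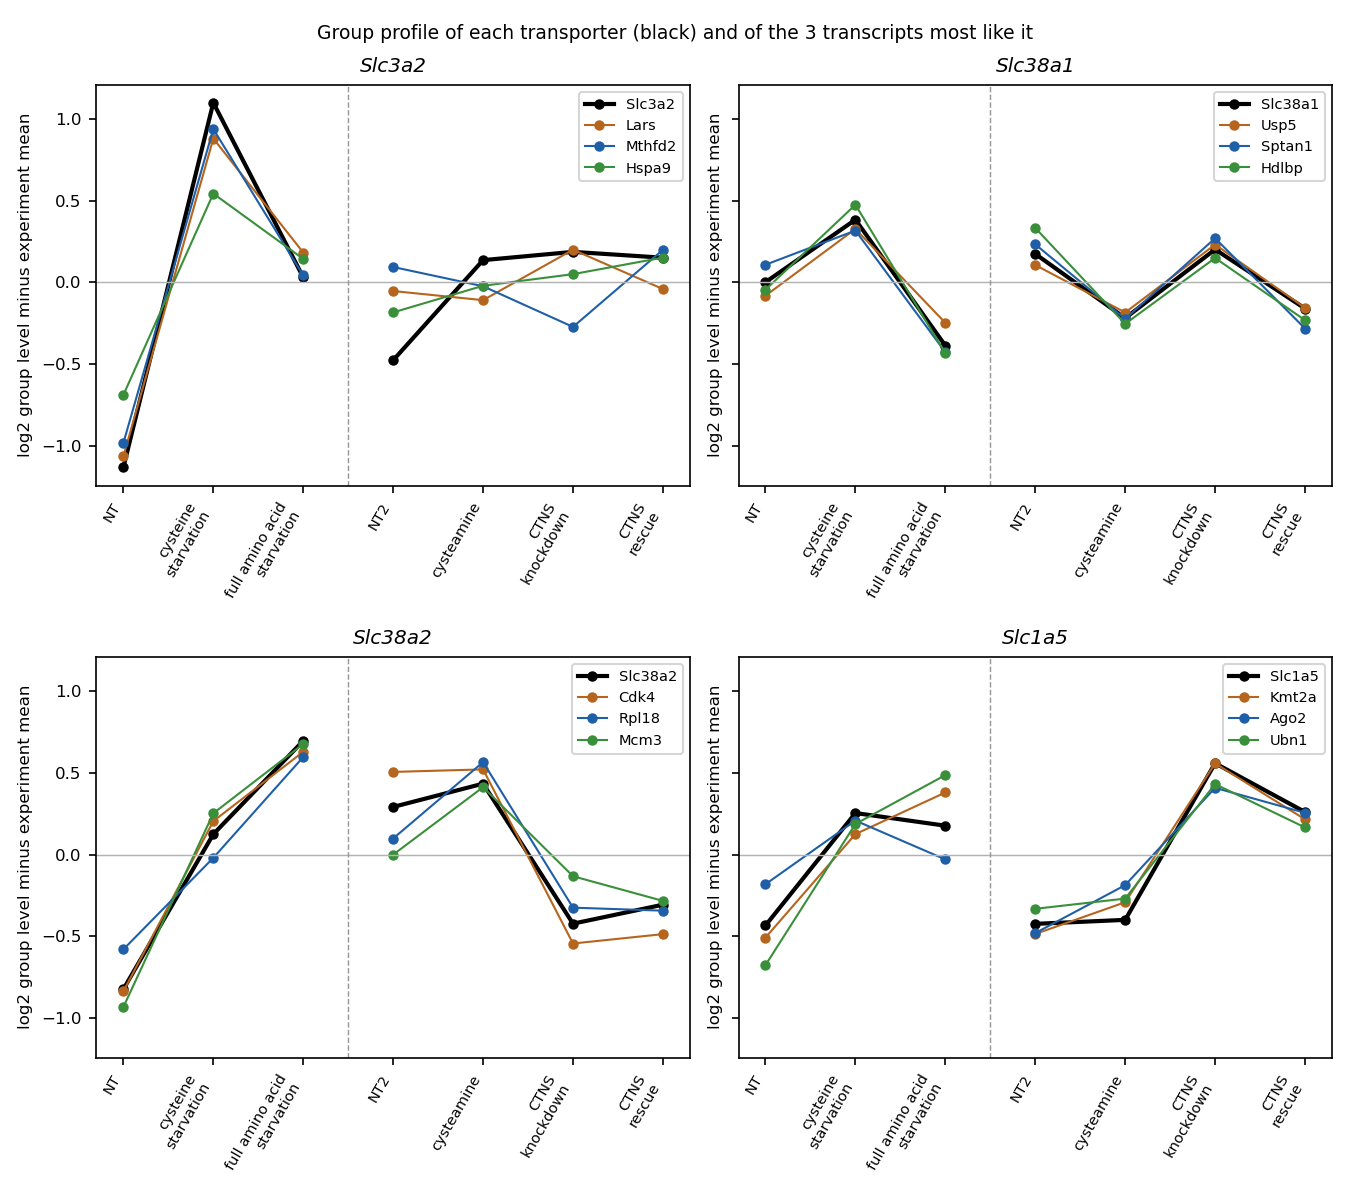
Log2 group level of each member (thick line) and its 3 nearest transcripts (thin lines) over the 7 groups, centred within each experiment. Slc3a2 and its neighbours peak in cysteine starvation, and Slc38a2 and its neighbours lie lower in knockdown and rescue than in NT2 and cysteamine.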

How the data were processed

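Polyadenylated RNA of 50 to 100 nucleotides was cut from a gel, tailed, ligated, copied and amplified, per the labels' protocols; no molecular identifiers are mentioned. Per the submitters' processing notes, bcl2fastq 2.20.0.422, cutadapt 2.8, Bowtie 1.2.3, STAR 2.7.10a and GRCm39 were used; their roles, the counting tool and the strand setting are not stated there. The authors deposited 1 table per library of whole-number counts per Ensembl transcript. The tables are named as CPM, but their values are whole and their totals differ (25697 to 165747). All 14 list the same 1399 transcripts with a smallest value of 1, so totals are not depths and a fall to 0 cannot be seen. Counting intervals are exact at 95% and cover counting error only.

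Transcript names and sequences came from GENCODE M21 (GRCm38), and promoters from RefSeq (GRCm38.p6); gene coordinates on GRCm39 were not used here. edgeR 4.0.16 in R 4.3.3 fitted 7 group means over 14 libraries with TMM scaling (7 residual degrees of freedom); tests were two-sided, with Benjamini-Hochberg adjustment over 1399 transcripts and a threshold of 0.05. Standard errors are the log2 difference over the square root of its F. The fit was also run on simulated data with known changes, and its outcome is not reported here. Alternatives were RLE and total-count scaling, DESeq2 1.42.0, limma 3.58.1 on log2(CPM + 1), a mean count of at least 20, a replicate block, each experiment alone, the other or both untreated groups, and leaving out transcripts high in NT (a ratio of NT to NT2 over 2 times its median) or 1 library. Members, lists and tests were chosen with earlier results of these data known. Named were the members, list genes past the threshold or among the 4 smallest p of a list, and the 3 most alike profiles.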

Additional observations from a re-analysis of the deposited data

Results flagged for a closer look

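1 result met a rule for a closer look, because the difference between 2 treatment effects passed its own test. The CTNS knockdown effect on Slc38a2 differed from the cysteine starvation effect by -1.90 ± 0.53 on the log2 scale (SE; edgeR's quasi-likelihood test, adjusted p = 0.0170). Slc38a2 was -0.73 in knockdown against NT2 and 1.17 in cysteine starvation against NT. NT held 8 counts and 1 count of Slc38a2, and leaving out its replicates gave -3.16 and -1.62. No group held the 4 or more libraries needed to look for an outlying one.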

How the results depend on the processing

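For the members' log2 differences, 299 values kept their direction and side of the threshold under the other settings, 19 newly passed it, 5 lost it and 11 changed sign. With 1 library left out, these were 165, 4, 10 and 13. Numbers of members called, given per comparison: cysteine starvation against NT called 0 of 4, but 1 with total-count scaling, 1 with both untreated groups and 2 against the other untreated group; full amino acid starvation called 0, but 1 with limma and 1 with both untreated groups; between the starvations it was 0, and 2 with total counts. Knockdown against NT2 called 1, but 0 with DESeq2, limma, the other or both untreated groups, and 3 without the transcripts high in NT. Knockdown against cysteamine called 1, but 0 with limma and 3 without those transcripts. Rescue against NT2 called 0, but 1 with total counts and 1 within its experiment. The cysteamine effect minus the cysteine starvation effect called 0, and 2 with total counts; for the knockdown effect it was 1, with 2 under total counts and 0 without the transcripts high in NT.

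With 1 library left out the members called ranged from 0 to 1 for cysteine starvation against NT, between the starvations and for knockdown against NT2, from 0 to 0 for knockdown against cysteamine, and from 0 to 2 for the knockdown effect minus the cysteine starvation effect. A lone library left in a group is assumed to vary like the other groups.

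These signs changed. Scaling by total counts gave 0.51 for Slc38a2 between the starvations, -0.17 for Slc38a1 in knockdown against NT2 and -0.044 for Slc38a2 in rescue against knockdown. Slc1a5 with cysteamine was 0.037 with RLE and 0.031 with DESeq2. Slc38a1 in knockdown against NT2 was -0.033 with limma and -0.076 within its experiment. Against the other untreated group, Slc38a2 was 0.30 in knockdown and 0.41 in rescue. Slc3a2 was 0.024 in rescue against knockdown without the transcripts high in NT, and -0.023 in knockdown against cysteamine within its experiment. The cause was not tested.

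Leaving out 1 library gave ranges that include 0 for Slc38a1 in cysteine starvation (-0.063 to 0.82), Slc3a2 in full amino acid starvation (-0.22 to 2.7), Slc1a5 with cysteamine (-0.33 to 0.35), Slc38a1 in knockdown against NT2 (-0.30 to 0.23), Slc3a2 (-0.25 to 0.090) and Slc1a5 (-0.92 to 0.14) in rescue against knockdown, Slc3a2 in knockdown against cysteamine (-0.057 to 0.095), and the knockdown effect minus the cysteine starvation effect for Slc38a1 (-0.82 to 0.071) and Slc1a5 (-1.06 to 0.36).

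The replicate block called Slc3a2 in cysteine starvation (2.90, adjusted p = 0.0244; 1 member called in place of 0) and Slc38a2 in rescue against NT2 (-0.63, adjusted p = 0.0283; 1 in place of 0), and changed no other call of a member. Not every pair of same-numbered libraries deviated together (correlations of -0.21 to 0.29 over 3 pairs in the first experiment and 0.092 to 0.28 over 6 pairs in the second), and the labels name nothing that same-numbered libraries share, so the numbers were not treated as pairs.

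Counts over all transcripts moved more. Under the other settings they ranged from 0 to 248 for cysteine starvation against NT (edgeR as reported: 0), from 0 to 459 for full amino acid starvation (0), from 16 to 548 between the starvations (210), from 0 to 375 for cysteamine (147), from 128 to 568 for knockdown against NT2 (431), from 1 to 58 for rescue against knockdown (9), from 107 to 578 for rescue against NT2 (441) and from 4 to 529 for knockdown against cysteamine (346). Scaling by total counts moved the median of all transcripts to 1.09 between the starvations and 0.70 for cysteine starvation against NT. DESeq2 gave no adjusted p for some low members, which then have no value there. NT held 3 counts of Slc3a2 and 2 of Slc1a5, and its replicates had the lowest rank correlation across transcripts (0.556, against 0.686 or more in each other group); the part of either in the few calls against NT was not tested. Leaving out NT replicate 1 gave 112 calls over all transcripts in cysteine starvation.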
